A study of Rattus norvegicus with 2 samples.

Results

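The epithelial miRNAs described here are the miR-200 family (miR-200a-3p, miR-200b-3p, miR-200c-3p, miR-141-3p and miR-429), miR-203a-3p, and the gut, liver and kidney miRNAs miR-192-5p, miR-194-5p and miR-215. They were taken by name from a table of reads on 406 rat miRNAs. Of the 9 names, 8 were matched, and miR-215 was not analysed here. INS-1 832/13 cells, a beta cell model derived from a rat insulinoma, were kept with 1 mg/mL of native HDL (nHDL) purified from human plasma. The incubation lasted 24 h and the medium held 3 mM glucose. The cell-free control (cf-nHDL, called the control below) was nHDL held in medium without cells, and INS-1-nHDL was nHDL from medium over the cells. Both were recovered by immunoprecipitation of apoA-I according to the labels, while the study's methods also name size exclusion chromatography. Sequencing gave 1 library per condition, and each library pooled 3 samples. These data therefore hold no replicate of any difference below, and no test of the conditions was possible. Some miRNAs named below, miR-375 and miR-182 among them, were also assayed in the paper by real-time PCR. None of the members was among those. All intervals are 95% intervals and cover counting error only, since PCR reads without molecular identifiers are not independent molecules. Reads from the human nHDL and from the rat cells were counted on the same rat sequences, and the species of a read was not analysed here. The deposited values have decimals at 11 miRNAs, none of them a member.

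A miRNA is cut as a duplex from a hairpin transcript, and the arm that stays in the Argonaute protein pairs with target mRNAs mainly through its seed, bases 2 to 8. The miR-200 family keeps epithelial cells in their epithelial state by repressing Zeb1 and Zeb2, and it is transcribed from a pair of separate genomic clusters. miR-203 is abundant in skin and other stratified epithelia, where it represses the stem cell factor p63. miR-192 and miR-194 come from shared transcripts, are abundant in liver, gut and kidney, and are induced by p53, as is miR-215, which has the seed of miR-192.

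The mature sequences are shown because the seed decides which members share targets, and because single bases decide whether reads of one member can be counted on another. The first 8 lines give the sequence in the deposited table, written with T, and the line for miR-215 gives the RefSeq sequence (GRCr8), written with U. Capitals mark the seed.
miR-200a-3p: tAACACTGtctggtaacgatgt
miR-141-3p: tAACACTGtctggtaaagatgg
miR-200b-3p: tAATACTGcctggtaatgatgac
miR-200c-3p: tAATACTGccgggtaatgatg
miR-429: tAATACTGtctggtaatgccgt
miR-203a-3p: gTGAAATGtttaggaccactag
miR-192-5p: cTGACCTAtgaattgacagcc
miR-194-5p: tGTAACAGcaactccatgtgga
miR-215: aUGACCUAugauuugacagaca
The 8 matched members held 5 different seeds, and no other miRNA of the table carried any of them. miR-200a-3p and miR-141-3p shared one seed, and miR-200b-3p, miR-200c-3p and miR-429 another. Counted from the 5′ end, miR-200a-3p and miR-141-3p differed at 2 of 22 positions (C17A and T22G). miR-200b-3p and miR-200c-3p differed at 1 of the 21 positions compared (T11G), which is within the 1 mismatch that the authors allowed in alignment. miR-192-5p and miR-215 differed at 3 of 21 positions (C1A, A12T and C20A), none of them in the seed. miR-429 differed from each of the other miR-200 members at 4 or 5 positions. miR-203a-3p and miR-194-5p differed from every other member at 12 positions or more.

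In total, 6585 reads were counted on miRNAs in the cf-nHDL library and 18008 in the INS-1-nHDL library. At these depths, 0 reads allow a share of up to 0.0456% in the control and 0.0167% after the cells (3 reads of the total). For the beta cell miRNA miR-375-3p, 231 reads were counted in the cf-nHDL library and 11219 in the INS-1-nHDL library, the direction its label gives. Reads were divided by DESeq2 size factors, 0.71 and 1.41, so a fold change of 1 corresponds to a read ratio of 1.98. A minimum of 5 reads in either library left 81 of the 406 miRNAs for the counts over all miRNAs. Only 120 of the 406 had a read in at least 1 library, so 0 reads in both was the usual state of a miRNA at this depth.

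The members held 696 reads in the cf-nHDL library and 2282 in the INS-1-nHDL one, and 3 of the 8 carried nearly all of them. miR-203a-3p had 570 reads in the control and 1997 after the cells. miR-192-5p had 37 reads in the cf-nHDL library and 266 in the INS-1-nHDL one. miR-141-3p went the other way in reads, with 85 in the control and 17 after the cells, although the INS-1-nHDL library was the deeper one. Of the others, miR-429 had 4 reads in the control and 1 after the cells, and miR-200a-3p had 0 and 1. miR-200b-3p, miR-200c-3p and miR-194-5p had 0 reads in both libraries, so they were not detectable at this depth. Thus 3 members passed the minimum of 5 reads and the remaining 5 did not.

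miR-203a-3p, the epidermal miRNA, was the most abundant member in both libraries. Its share of all miRNA reads was 8.66% in the control (Wilson interval 8.0 to 9.36%), at rank 3 among all miRNAs. After the cells it was 11.1% (10.6 to 11.6%), at rank 2. miR-192-5p moved from rank 16, with 0.562% of the reads (0.408 to 0.773%), to rank 7, with 1.48% (1.31 to 1.66%). miR-141-3p moved from rank 12, with 1.29% of the reads (1.05 to 1.59%), to rank 42, with 0.0944% (0.0590 to 0.151%). The order of the levels was therefore miR-203a-3p, miR-141-3p, miR-192-5p on cf-nHDL and miR-203a-3p, miR-192-5p, miR-141-3p on INS-1-nHDL, and in neither library did the intervals of these 3 overlap. miR-429 came next on cf-nHDL with 0.0607% (0.0236 to 0.156%), an interval that holds the limit for 0 reads. On INS-1-nHDL miR-429 and miR-200a-3p, with 1 read each, could not be ordered.

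**Figure D1:**
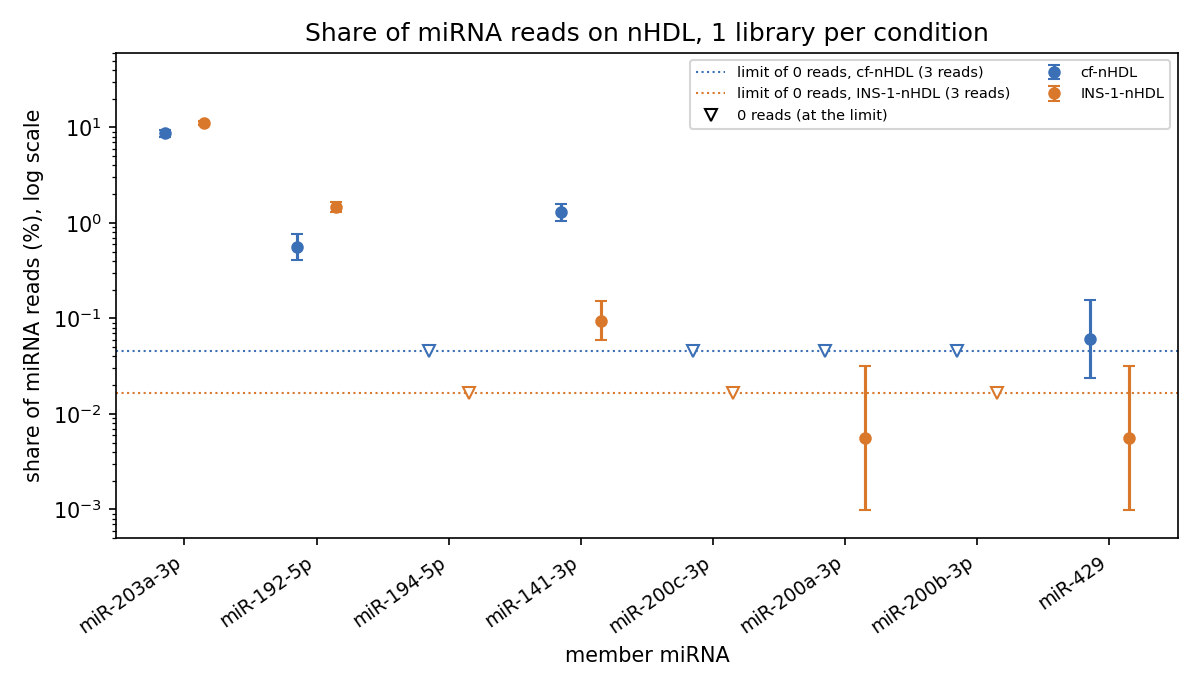
Share of all miRNA reads (%, log axis) of each matched member in the cf-nHDL and INS-1-nHDL libraries, with Wilson 95% intervals. Open triangles stand for 0 reads and are drawn at the limit of 3 reads (dotted lines, 0.0456% and 0.0167%); miR-203a-3p and miR-192-5p are higher on INS-1-nHDL and miR-141-3p is higher on cf-nHDL.

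The share of miR-375-3p bears on these values, because a miRNA that takes most of a library lowers the share of every other. Among the reads that were not miR-375-3p, miR-203a-3p took 8.97% in the control (8.29 to 9.70%) and 29.4% after the cells (28.3 to 30.5%). For miR-192-5p the same shares were 0.582% (0.423 to 0.802%) and 3.92% (3.48 to 4.41%). For miR-141-3p they were 1.34% (1.08 to 1.65%) and 0.250% (0.156 to 0.401%). Summed over the 8 members, the share of reads outside miR-375-3p was 11% (10.2 to 11.7%) in the control and 33.6% (32.5 to 34.7%) on INS-1-nHDL, against 10.6% and 12.7% of all miRNA reads. So the direction of each of the 3 members was the same with and without miR-375-3p in the total, and the size was not.

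On the scale of normalized counts, miR-192-5p was 3.62-fold higher after incubation with the cells (exact interval 2.56 to 5.26), a log2 fold change of 1.86. miR-203a-3p was 1.77-fold higher (1.61 to 1.94), a log2 fold change of 0.82. miR-141-3p had a fold change of 0.101 (0.0561 to 0.171), a log2 fold change of -3.31. Scaled by the total without miR-375-3p, the fold changes were 6.73 for miR-192-5p, 3.28 for miR-203a-3p and 0.187 for miR-141-3p, and with total miRNA reads miR-203a-3p was under 1.5-fold, at 1.28. Of the 3 kept members, 2 were therefore above 1.5-fold and 1 was below 1/1.5-fold, and in each case the whole interval was past the threshold. Among all 81 kept miRNAs, 49.4% were above 1.5-fold and 39.5% below 1/1.5-fold, and the whole interval was above 1.5 for 30.9% and below 1/1.5 for 29.6%, so moves of this size were common in both directions. The median log2 fold change was 0.82 over the 3 kept members and 0.23 over all 81, with counts under 3 reads set to 3. For miR-429, which was not kept, the fold change was 0.126 with an interval from 0.00256 to 1.27 that holds 1 (0.00186 to 0.924 with total miRNA reads), or 0.378 with 3 reads in place of 1.

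**Figure D2:**
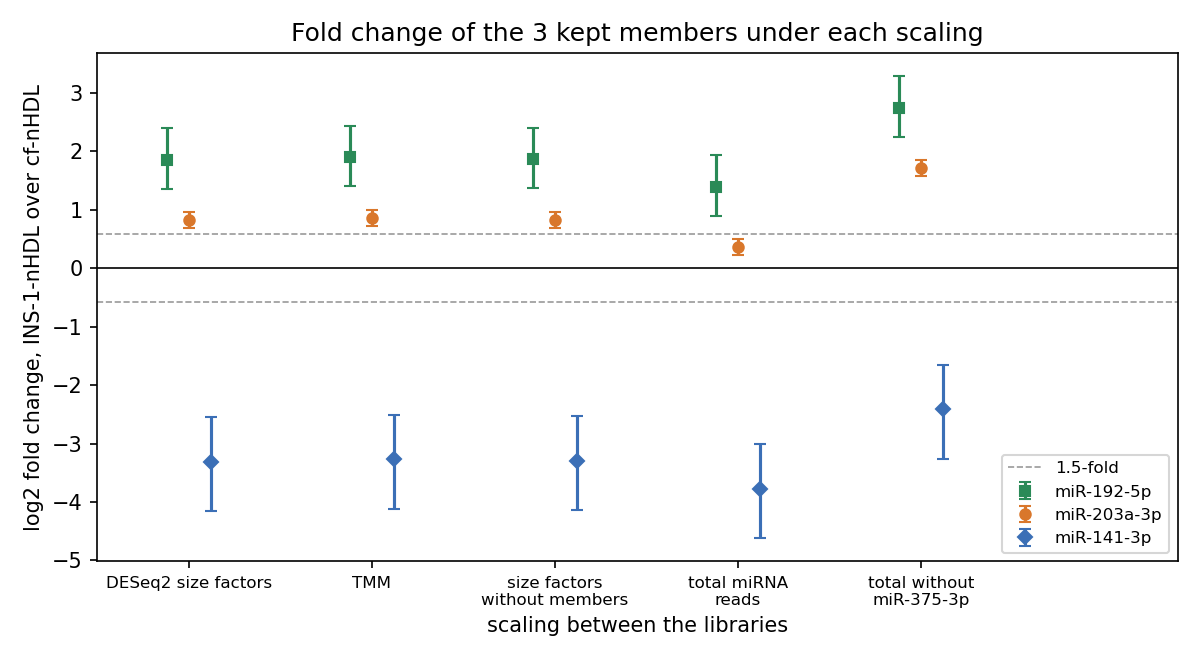
Log2 ratio of normalized counts (INS-1-nHDL against cf-nHDL) for miR-192-5p, miR-203a-3p and miR-141-3p under 5 scalings of the libraries, with exact 95% intervals and dashed lines at 1.5-fold and 1/1.5-fold. Under each scaling miR-192-5p and miR-203a-3p lie above 0 and miR-141-3p lies below 0; under total miRNA reads miR-203a-3p drops below the upper dashed line, at 1.28-fold.

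Among the 56 kept miRNAs with reads in both libraries, miR-192-5p had the fold change of rank 10 and miR-203a-3p that of rank 21 from the top, and miR-141-3p that of rank 6 from the bottom. The nearest miRNAs in fold change were sought among the 18 that had at least 20 reads in each library. miR-378a-3p, with a fold change of 2.67 (1.83 to 4.0), lay just below miR-192-5p and just above miR-203a-3p. miR-375-3p was the next above miR-192-5p, at 24.5 (21.5 to 28), and its interval is far from that of miR-192-5p. miR-25-3p, at 1.17 (0.720 to 1.95), lay just below miR-203a-3p, and their intervals overlap. miR-10a-5p, at 0.148 (0.125 to 0.174), was the nearest above miR-141-3p, with an overlapping interval. miR-141-3p itself, with 17 reads on INS-1-nHDL, was under 20 reads there, and a minimum in each library leaves out miRNAs that are very low in one of them.

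Ratios of 2 members within a library do not depend on how the libraries are scaled, and all 3 pairs of kept members were compared in this way. On cf-nHDL there were 6.71 reads of miR-203a-3p for each read of miR-141-3p, and on INS-1-nHDL 117, a 17.5-fold difference (exact conditional interval 10.2 to 31.7). The reads of miR-192-5p per read of miR-141-3p were 0.435 and 15.6 in the same order, a 35.9-fold difference (18.5 to 71.0). miR-192-5p and miR-203a-3p moved in the same direction, yet their ratio changed too, from 0.0649 to 0.133, a 2.05-fold difference (1.43 to 3.02). Hence no pair of the 3 kept a fixed ratio within counting error.

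**Figure D3:**
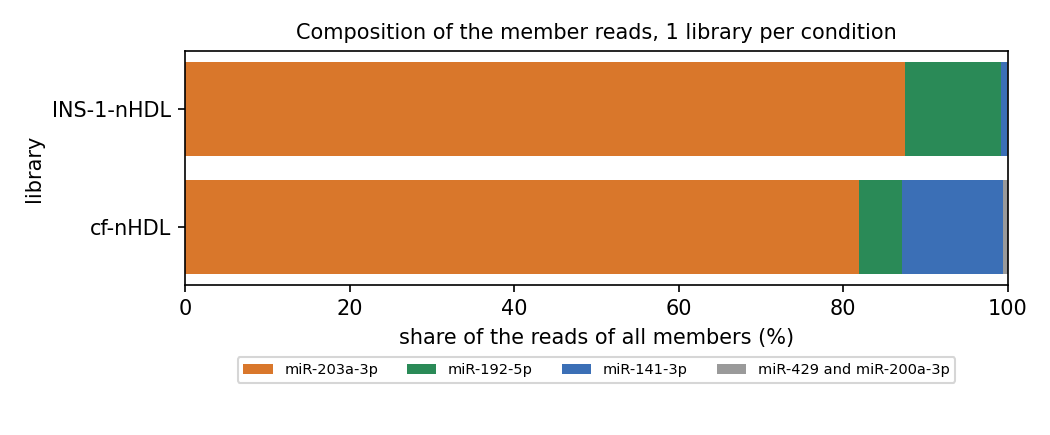
Composition of the reads of all members (%) in each library. miR-141-3p makes up 12.2% of the 696 member reads on cf-nHDL and 0.745% of the 2282 on INS-1-nHDL, while miR-192-5p makes up 5.32% and 11.7%.

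Within the sum of the members, miR-203a-3p made up 81.9% in the control (78.9 to 84.6%) and 87.5% after the cells (86.1 to 88.8%). The share of miR-192-5p was 5.32% (3.88 to 7.24%) and 11.7% (10.4 to 13.0%), and that of miR-141-3p was 12.2% (9.99 to 14.9%) and 0.745% (0.466 to 1.19%). The summed reads of all members were 1.65-fold higher on INS-1-nHDL (1.52 to 1.8), against 1.20-fold with total miRNA reads and 3.07-fold with that total less miR-375-3p. Without miR-203a-3p, the sums were 126 and 285 reads, and the fold change was 1.14 with an interval from 0.921 to 1.42 that holds 1. It was 0.827 (0.668 to 1.03) when scaled by total miRNA reads and 2.12 (1.71 to 2.63) when miR-375-3p was left out of that total, so the scaling set its direction. That sum joins members with opposite directions, so it stands for neither.

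The genomic clusters were read from the positions that the authors' files give, on the rat build that the study writes as rno5. miR-200b-3p (chr5:176964182-176964204), miR-200a-3p (chr5:176963402-176963423) and miR-429 (chr5:176962364-176962385) lie on the minus strand within 1841 bases. miR-200c-3p (chr4:224254386-224254406) and miR-141-3p (chr4:224253957-224253978) lie on the minus strand within 450 bases. miR-194-5p (chr1:228619901-228619922) and miR-192-5p (chr1:228620095-228620115) lie close together on the plus strand, and a further copy of miR-194-5p is given at chr13:107924408-107924429. miR-203a-3p lies alone at chr6:145714684-145714705 on the plus strand. In the gene annotation of GRCr8, a later rat assembly used for names only, the miR-200b, miR-200a and miR-429 genes overlap Ttll10, and Mir141 and Mir200c lie between Phb2 and Ptpn6. Mir192 and Mir194-2 lie between Atg2a and Ehd1, and Mir203 lies between Aspg and Kif26a. Mir194-1 lies beside Mir215, and both overlap Iars2.

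In none of the 3 clusters did the reads spread over all neighbours, although miRNAs of a cluster are made from a common transcript. In the cluster on chromosome 4, miR-141-3p had 85 and 17 reads and miR-200c-3p had 0 and 0. With 3 reads taken for miR-200c-3p, miR-141-3p had at least 28.3 times as many reads on cf-nHDL and at least 5.67 times as many on INS-1-nHDL. In the cluster on chromosome 1, miR-192-5p had 37 and 266 reads and miR-194-5p, whose copies at both positions share 1 row of the table, had 0 and 0. With 3 reads taken for miR-194-5p, miR-192-5p had at least 12.3 times as many reads on cf-nHDL and at least 88.7 times as many on INS-1-nHDL. The fold changes of these clusters, 0.101 and 3.62, were thus those of miR-141-3p and miR-192-5p alone. The cluster on chromosome 5 held 4 reads in the control and 2 after the cells, which gives a ratio of 0.252 with an interval from 0.0228 to 1.76 that holds 1.

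**Figure D4:**
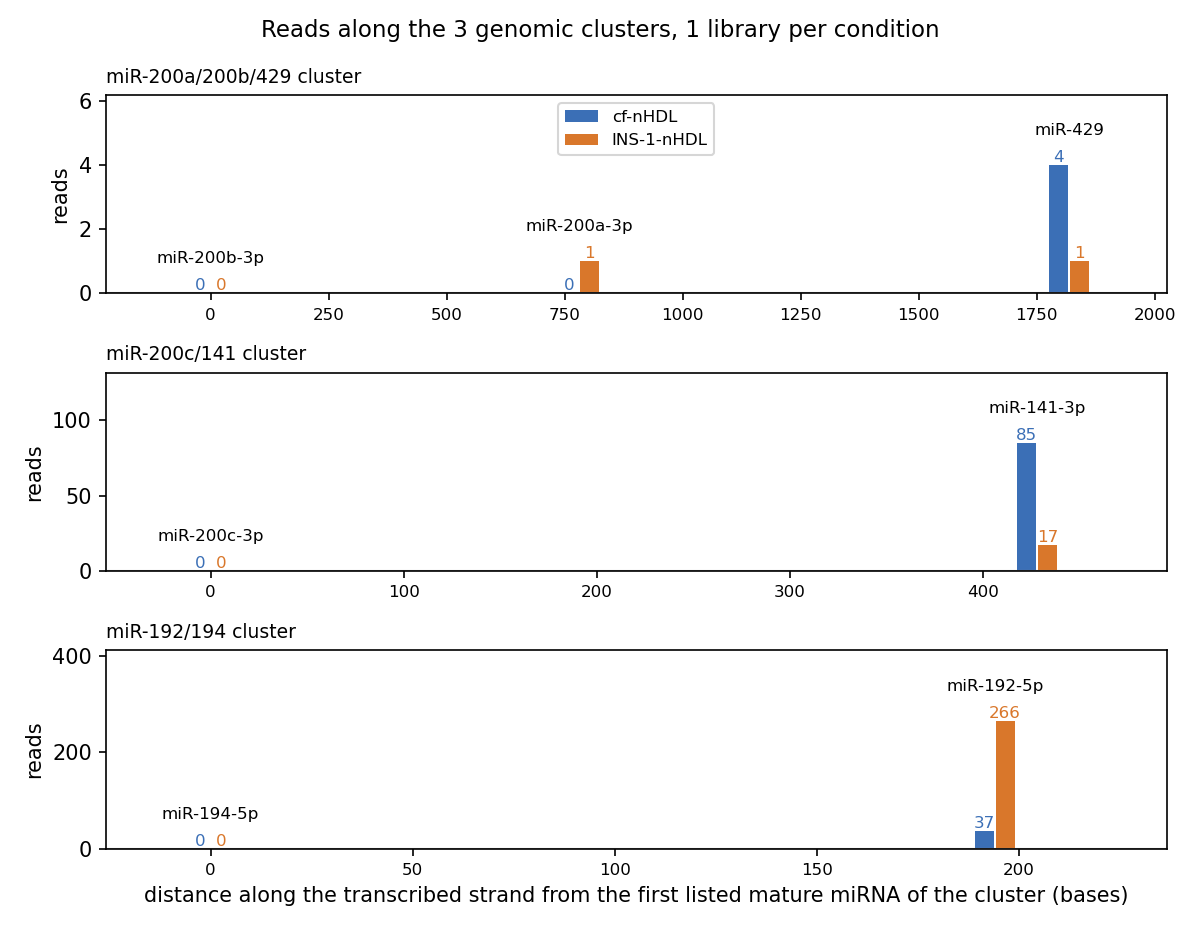
Reads of each member along the 3 genomic clusters, placed by distance in bases from the first listed mature miRNA on the transcribed strand; bars show cf-nHDL and INS-1-nHDL reads, and each panel has its own vertical axis. miR-141-3p and miR-192-5p have reads where their neighbours miR-200c-3p and miR-194-5p have 0 in both libraries.

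By seed, miR-141-3p with miR-200a-3p held 85 reads in the cf-nHDL library and 18 in the INS-1-nHDL one, and miR-200b-3p, miR-200c-3p and miR-429 together held 4 and 1. The whole miR-200 family held 89 and 19 reads, a fold change of 0.108 (0.0619 to 0.178), and 85 of the 89 and 17 of the 19 were on miR-141-3p.

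The hairpins of the 3 kept members and of the neighbours without reads are shown (RefSeq, GRCr8, written with U) because they place each member's arm beside the opposite arm of its hairpin. Capitals mark the arm of the member named in brackets.
Mir203 (miR-203a-3p): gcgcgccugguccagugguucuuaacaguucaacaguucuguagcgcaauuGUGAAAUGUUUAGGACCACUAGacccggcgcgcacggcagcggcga
Mir192 (miR-192-5p): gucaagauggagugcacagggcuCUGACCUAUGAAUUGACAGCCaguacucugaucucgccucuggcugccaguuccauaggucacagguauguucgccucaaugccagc
Mir194-2 (miR-194-5p): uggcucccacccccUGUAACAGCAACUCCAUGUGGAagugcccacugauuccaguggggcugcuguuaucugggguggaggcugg
Mir141 (miR-141-3p): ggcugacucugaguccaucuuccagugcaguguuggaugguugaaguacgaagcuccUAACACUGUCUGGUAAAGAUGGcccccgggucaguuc
Mir200c (miR-200c-3p): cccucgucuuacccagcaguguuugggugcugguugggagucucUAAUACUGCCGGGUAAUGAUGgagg
Of the 7 opposite arms of these hairpins and those of miR-200a and miR-200b, 5 were matched (miR-200a-5p, miR-200b-5p, miR-141-5p, miR-203a-5p and miR-194-3p), and all 5 had 0 reads in both libraries. The arms miR-200c-5p and miR-192-3p were not analysed here. miR-203b-3p, from a hairpin on the opposite strand of Mir203, also had 0 reads in both libraries. Its other arm, miR-203b-5p, covers the position of miR-203a-3p and was not analysed here, and whether the counting used strand is not given in the sources used here.

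Other miRNAs of epithelial or gut tissues, from a list of 9 names of which 8 were matched, gave 4 with reads and 4 with 0 reads in both libraries (miR-31a-5p, miR-34c-5p, miR-449a-5p and miR-96-5p). With counts under 3 reads set to 3, 2 of the 4 kept were above 1.5-fold and 1 was below 1/1.5-fold, against 46.9% and 39.5% of all 81 kept miRNAs. miR-205, which like miR-203 is abundant in stratified epithelia, had 24 and 9 reads, and its fold change was 0.189 (0.0773 to 0.421). It was thus lower where miR-203a-3p was higher, and its interval overlapped that of miR-141-3p. The other 3 were miR-375-3p, miR-182 and miR-183-5p. For miR-182 there were 13 and 152 reads, a fold change of 5.89 (3.34 to 11.3). Real-time PCR in the paper did not find significant export of miR-182 from these cells. miR-183-5p had 0 and 7 reads. With 3 reads in place of 0 its ratio was under 1.5, and its interval, from 0.726 upward, holds 1.

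A list of miRNAs abundant in blood cells and liver was set beside the members because the nHDL came from plasma. The source of the reads on these miRNAs was not measured, and cultured cells can hold some of them too, miR-16-5p among them. Of 8 names, 7 were matched and 4 had reads (miR-16-5p, miR-451-5p, miR-142-5p and miR-223-3p), while miR-122-5p, miR-144-3p and miR-142-3p were at 0 in both libraries. All 4 were below 1/1.5-fold, where 39.5% of all 81 kept miRNAs were. Apart from miR-16-5p their reads were few: 26 and 5 for miR-451-5p, 15 and 5 for miR-142-5p, and 7 and 0 for miR-223-3p. miR-223-3p passed the minimum of 5 reads through the control alone, so it could only be called lower. Together these 4 took 38.5% of the miRNA reads in the control (37.3 to 39.7%) and 4.17% after the cells (3.89 to 4.47%). For 100 reads of miR-16-5p, which had nearly all of the reads of this list, there were 3.42 reads of miR-141-3p in the control and 2.29 after the cells, a ratio of 0.671 with an interval from 0.371 to 1.15 that holds 1. For miR-203a-3p the same numbers were 22.9 and 269.5, an 11.8-fold difference (10.4 to 13.3). For miR-192-5p they were 1.49 and 35.9, a 24.1-fold difference (16.9 to 35.3). Set against 100 reads of miR-375-3p, each of the 3 was lower on INS-1-nHDL. There were 246.8 reads of miR-203a-3p in the control and 17.8 after the cells, and 16 and 2.37 reads of miR-192-5p. There were 36.8 and 0.152 reads of miR-141-3p. The comparisons with miR-16-5p and miR-375-3p were chosen after the values were seen, and both miRNAs lie near the ends of the range of fold changes, at 0.150 and 24.5. The part of the plasma miRNAs in these results was not tested.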

How the data were processed

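Small RNA was sequenced from nHDL, with 1 library for each condition. Per the labels and the methods, adapters were removed with Cutadapt and reads were aligned to the rat genome with Bowtie 1.1.2 and 1 mismatch. The authors deposited expected counts of reads on mature miRNAs, not normalized, with decimals at 11 of 406 miRNAs. Those counts were rounded to whole reads. A DESeq2 comparison by the authors (fold changes and p-values) was also deposited and was not used. Libraries had been selected by insert size and short reads dropped before alignment. The counter is not given in the sources used here.

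Size factors came from DESeq2 1.42.0 (R 4.3.3), on the 56 kept miRNAs with reads in both libraries. Fold changes have Clopper-Pearson intervals given the sum of both counts, ratios of members have exact conditional intervals, and shares have Wilson intervals (scipy 1.17.1). No p-value was computed. The alternatives were TMM (edgeR 4.0.16), total miRNA reads with and without miR-375-3p, other miRNA sets for the size factors, other filters and a pseudocount of 1. The computation was tested on simulated data with independent reads and a minority of miRNAs changed, equally in both directions. That test does not cover PCR copies or changes as widespread as those here.

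The members, the companion lists and the rule for names were chosen with earlier results of these data known. Every member and opposite arm is named, with at most 4 examples with reads from each companion list and the nearest miRNA on each side in fold change. List miRNAs at 0 reads, named beyond these examples, and the antisense miR-203b-3p were named after their values were seen.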

Additional observations from a re-analysis of the deposited data

How the results depend on the processing

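Each condition had 1 library, so no paired analysis was possible because there was nothing to pair, and no library could be left out. Scalings shift all log2 fold changes by one amount: 0.04 with TMM, -0.46 with total miRNA reads, 0.89 when miR-375-3p was left out of that total, 0.01 without the members and 0 with at least 10 reads in each library. miR-203a-3p, miR-192-5p and miR-141-3p, the clusters that hold miR-192-5p and miR-141-3p, the miR-200 family and the sum of all members kept their direction under each. Under total miRNA reads, the sum without miR-203a-3p fell below 1 (0.827), as did miR-25-3p (0.848), and the median log2 fold change of all 81 miRNAs was -0.24; with miR-375-3p left out of the total they were 2.12, 2.17 and 1.12, and the miR-200 family was at 0.200. These last were examined after the data were seen. Under total miRNA reads, miR-203a-3p was at 1.28 and all members together at 1.20, and 1 member was above 1.5-fold in place of 2. Without miR-375-3p in the total, miR-203a-3p was at 3.28, miR-192-5p and its cluster at 6.73, miR-141-3p and its cluster at 0.187, all members together at 3.07, and the members' share of INS-1-nHDL reads at 33.6%. With no minimum beyond 1 read, 2 members were below 1/1.5-fold, since miR-429 joins miR-141-3p, and 3 were above 1.5-fold, since miR-200a-3p joins with 0 and 1 reads. Of 94 values under alternatives, 77 stayed within the interval, within 1.5 times the count or, for the median, within 1.5-fold with the same sign, and 17 moved. Counts limit the rest: the 5 members under 5 reads give no direction with DESeq2 size factors.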
